A study of Homo sapiens with 24 samples.

Results

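The nuclear-encoded subunits of the mitochondrial respiratory chain and ATP synthase were examined in RNA-seq libraries of 4 human breast cancer cell lines with lowered ADAR1. Members were the protein-coding genes outside the mitochondrial genome whose symbols begin with NDUFA, NDUFB, NDUFC, NDUFS, NDUFV, SDHA to SDHD, UQCR, COX4 to COX8 or ATP5, without the assembly factors NDUFAF and SDHAF. The rule found 89 members among 37416 rows, of which 19479 are protein-coding: 38 in complex I, 4 in complex II, 8 in complex III, 19 in complex IV and 20 in complex V. NDUFA4 and its paralog NDUFA4L2 were placed in complex IV, where their proteins are assigned despite their names. Of the members, 86 passed the filter on low counts together with 21352 genes in all. COX6A2, COX8C and the readthrough gene NDUFC2-KCTD14 did not.

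The lines were BT549, HCC1806, MDAMB231 and MDAMB468, which the series describes as triple-negative. Lentivirus delivered a hairpin directed at ADAR1 (shADAR1) or, in the control arm, a hairpin without a target (shNT). In all 8 groups infection lasted 24 h and selection with puromycin at 2 µg/ml lasted 72 h. Each group had 3 biological replicates, giving 24 libraries. Every line is one tumour-derived culture, so that a difference between lines is a difference between single cultures, and the labels do not say whether more than 1 hairpin was used. The comparison of arms asks what lowering ADAR1, an enzyme that edits adenosine to inosine in double-stranded RNA, does to these transcripts.

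Complex I oxidises NADH and complex II oxidises succinate, and both pass electrons to ubiquinone. Complex III moves them on to cytochrome c and complex IV to oxygen, while complexes I, III and IV pump protons that drive ATP synthesis by complex V. Complexes I, III, IV and V each join subunits from nuclear genes with subunits from mitochondrial DNA, complex II is wholly nuclear-encoded, and promoters of nuclear subunit genes are known for binding sites of NRF1, ETS-family factors such as GABP, and YY1.

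Short promoter stretches are shown because several of the genes described below carry the letters of the NRF1 motif. RefSeq promoters on GRCh38.p14, from 250 bases before to 50 bases after a gene's start, were matched by symbol for 71 members in 84 windows, and the other 18 members had no entry. The motif CGCATGCGC, searched on both strands, lay in 11 member windows, or 13.1%, against 2.35% of 21343 windows of protein-coding genes. These were the windows of ATP5F1C, ATP5MC2, ATP5ME, ATP5PF, COX6A1, NDUFA5, NDUFA8, NDUFB4, NDUFS6, NDUFS7 and SDHD. The letters were chosen after results were seen, and the count depends on them: the form searched first, with a G before these letters, lay in only 4 member windows (4.76% against 1.49%). The stretches of 4 of these genes are printed 5′ to 3′ on the gene's strand with the motif in capitals, read on the opposite strand. They lie at chr10:7788145-7788174 (ATP5F1C, plus strand), chr3:120596167-120596196 (NDUFB4, plus), chr21:25735155-25735184 (ATP5PF, minus) and chr7:123557957-123557986 (NDUFA5, minus). In ATP5F1C and NDUFB4 the motif also reads on the printed strand, ending at the base after the capitals.
ATP5F1C: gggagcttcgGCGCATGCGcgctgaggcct
NDUFB4: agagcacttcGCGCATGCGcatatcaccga
ATP5PF: cactcaaagaGCGCATGCGtacagagcaag
NDUFA5: tatgcccatcGCGCATGCGtcaatttttct
With any base at the middle position (CGCANGCGC, which includes the motif above) the match lay in 26 member windows, or 31.0% against 9.66%, and with the G before it in 17, or 20.2% against 7.45%. The ETS core CCGGAAG lay in 22 windows, or 26.2% against 13.0%, and the YY1 motif AAGATGGCG in 10, or 11.9% against 2.47%. A match describes letters in a window and does not show that a factor binds there.

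Total counts ran from 10370645 (MDAMB231 shNT replicate 1) to 97218217 per library. Between 0.420% and 0.557% of counts fell on the members and 3.15% to 6.07% on the mitochondrial genome. Levels are CPM, a gene's counts relative to the library's total after TMM scaling, as mean ± SD with n = 3 unless stated. ADAR, the targeted gene, fell in every line: BT549 went from 516 ± 12.05 to 135 ± 18.97 CPM, HCC1806 from 354 ± 18.3 to 117 ± 27.1, MDAMB231 from 293 ± 14.9 to 63.9 ± 8.43, and MDAMB468 from 417 ± 24.4 to 155 ± 28.0. Its average log2 fold change was -1.79 (SE 0.07, adjusted p = 3.2e-13). Of the genes that define the triple-negative label, PGR stayed under 1 CPM in every group mean, ERBB2 was at 75.9 to 100.1 CPM, and ESR1 was at 19.05 CPM in HCC1806 shNT and at 6.85 in MDAMB468 shNT. The epithelial markers EPCAM, CDH1, KRT5 and KRT8 were each under 1 CPM in BT549, where the mesenchymal gene VIM was at 2309 CPM. Of the other epithelial and mesenchymal markers, KRT18, ZEB1, CDH2 and FN1 also differed between shNT groups in edgeR (adjusted p under 0.05). Their levels, and those of the markers above in the other lines, are not given here.

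In the shNT arms, summed subunit transcripts differed between lines by complex. For complex I, BT549 had 1728 ± 210 CPM, HCC1806 had 1418 ± 26.3, MDAMB231 had 1284 ± 76.3 and MDAMB468 had 1613 ± 73.6. The ranges of BT549 and MDAMB468 overlapped, as their 3 libraries ran from 1486 to 1860 and from 1533 to 1679. Complex II summed to 400 ± 45.9, 582 ± 68.9, 305 ± 14.0 and 359 ± 18.4 CPM in the same order of lines. All 3 HCC1806 libraries lay above those of the other lines, mostly through SDHA. Complex III summed to 667 ± 72.1, 488 ± 20.5, 508 ± 76.3 and 488 ± 15.4 CPM, with the highest mean in BT549, whose lowest library, at 584, lay inside the MDAMB231 range. Complex IV summed to 813 ± 118, 690 ± 18.6, 690 ± 72.9 and 805 ± 28.0 CPM. Complex V summed to 1775 ± 280, 1463 ± 74.1, 1566 ± 90.9 and 1290 ± 48.3 CPM, and was lowest in MDAMB468. Complexes I and V therefore did not follow one order: MDAMB468 was second for complex I and last for complex V. In BT549, replicate 3 had the lowest sum of all members in both arms, 4547 CPM in shNT and 4970 in shADAR1. In bulk RNA, fewer cells of a kind and less RNA per cell cannot be told apart.

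**Figure D1:**
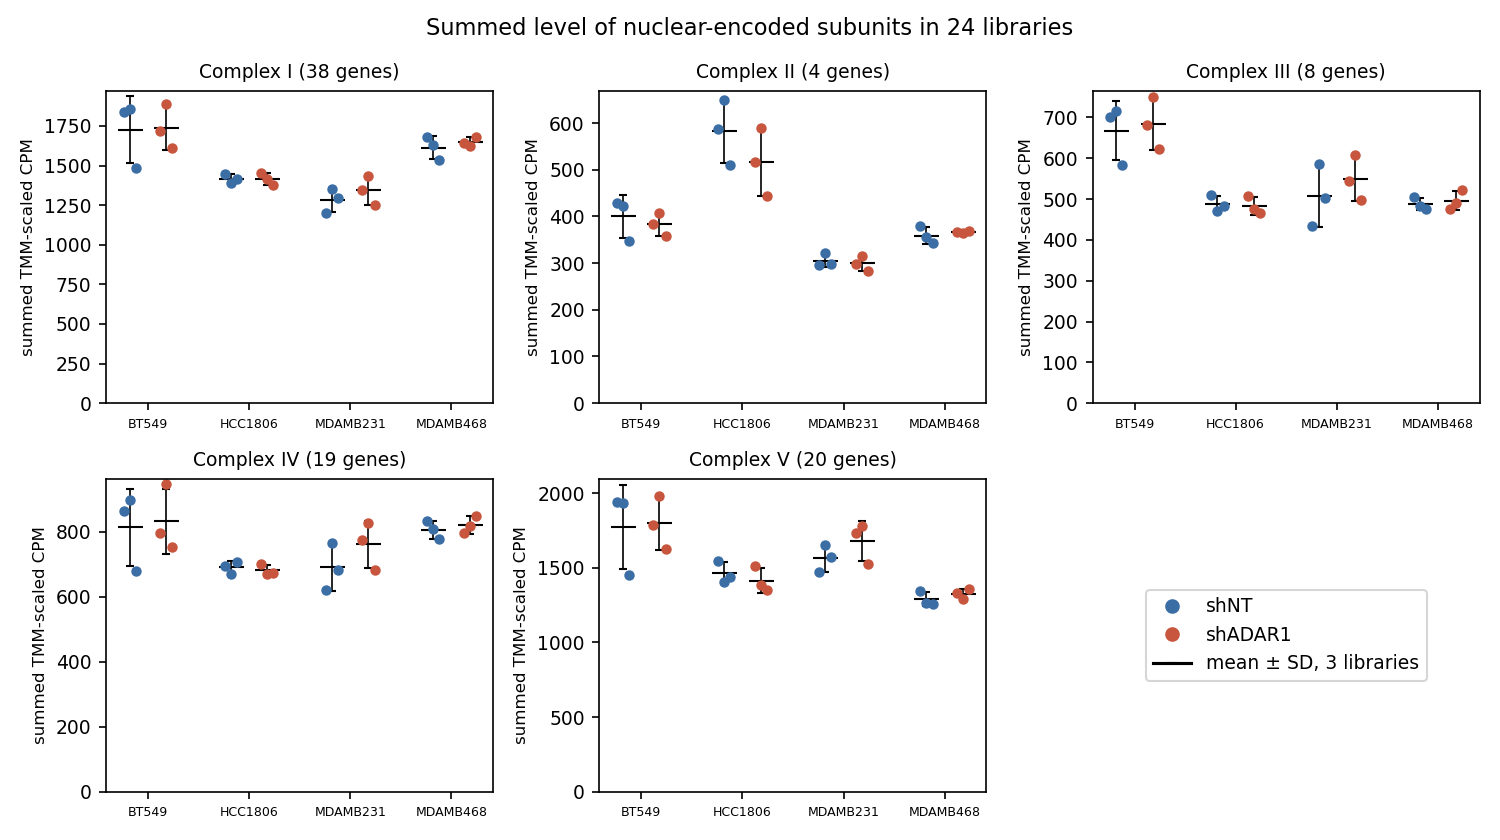
Summed TMM-scaled CPM of the subunits of each complex (y axis from 0) in the 24 libraries, by line and arm; points are libraries and bars are mean ± SD of 3. The shNT and shADAR1 points of each line overlap in every panel, while complex II is highest in HCC1806 and complex V lowest in MDAMB468.

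Nearly all members differed between lines in level, as most genes did. A joint test over the 4 shNT groups called 77 of 86 members at an adjusted p under 0.05, or 89.5%, against 85.9% of all genes tested. By complex it called 35 of 37 in complex I, 4 of 4 in complex II, 6 of 8 in complex III, 16 of 17 in complex IV and 16 of 20 in complex V. Between pairs of lines, BT549 and HCC1806 differed in 58 members, 39 of them higher in BT549 (63.5% of all genes called, 29.5% higher in BT549). BT549 and MDAMB231 differed in 50, of which 37 were higher in BT549 (background 56.5% and 28.4%), and BT549 and MDAMB468 in 50, of which 33 were higher in BT549 (61% and 30.5%). HCC1806 and MDAMB231 differed in 49, of which 25 were higher in HCC1806 (background 59% and 31.4%). HCC1806 and MDAMB468 differed in 54, of which 25 were higher in HCC1806 (62.9% and 33.7%), and MDAMB231 and MDAMB468 in 54, of which 22 were higher in MDAMB231 (61.8% and 31.2%). The members' share called was close to the background in each pair, at 57.0% to 67.4%. Members higher in BT549 made up 45.3%, 43.0% and 38.4% of the 86 against HCC1806, MDAMB231 and MDAMB468.

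The size of these differences was modest for most members. Among the 76 members with a mean of at least 5 CPM over all libraries, the highest line exceeded the lowest by a median of 1.77-fold, from log2 means with 0.5 added. The same measure was 2.42-fold over 11514 protein-coding genes with that mean, 1.93-fold over 84 cytosolic ribosomal protein genes, 2.09-fold over 45 assembly factors and 1.69-fold over the 13 protein-coding genes of the mitochondrial genome. BT549 was the highest line for 30 of the 76 members, HCC1806 for 17, MDAMB231 for 11 and MDAMB468 for 18, while HCC1806 was the lowest for 27.

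NDUFB9, a small accessory subunit of the membrane arm of complex I encoded on chromosome 8, had the widest range of the well-expressed members. Its shNT libraries read 97.3, 99.4 and 69.3 CPM in BT549, 118, 126 and 121 in HCC1806, 12.9, 15.9 and 16.2 in MDAMB231, and 30.7, 28.8 and 27.6 in MDAMB468. No library of one line overlapped another line's range, and all 6 pairs of lines were called. The log2 difference between HCC1806 and MDAMB231 was 3.00 (SE 0.13, adjusted p = 1.1e-14). UQCRB, a complex III subunit on the same chromosome, took another order: 120, 127 and 110 CPM in BT549, 61.0, 54.2 and 56.9 in HCC1806, 94.6, 140 and 128 in MDAMB231, and 39.8, 35.3 and 36.9 in MDAMB468. Its BT549 and MDAMB231 levels did not differ beyond their spread (log2 difference -0.03, SE 0.13, adjusted p = 0.902). MDAMB231 exceeded MDAMB468 in UQCRB by 1.70 (SE 0.14, adjusted p = 2.5e-10), although MDAMB231 was the lowest line in NDUFB9.

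Among other complex I genes, NDUFS5, an accessory subunit and the complex I gene with the highest CPM per kilobase, read 160, 149 and 134 CPM in MDAMB468 against 47.9, 49.1 and 51.5 in HCC1806. The log2 difference was -1.57 for HCC1806 minus MDAMB468 (SE 0.15, adjusted p = 5.2e-09), and all 6 pairs were called. NDUFV2, a core iron-sulphur subunit of the NADH-oxidising module, was at 106 ± 5.39 CPM in MDAMB468 and at 42.0 to 54.1 CPM in the means of the other lines. NDUFV1, which holds the flavin that accepts electrons from NADH, was at 179 ± 33.8 CPM in BT549 and 155 ± 7.38 in MDAMB468 but at 84.4 ± 6.59 in MDAMB231. The 3 members on the X chromosome, NDUFA1, NDUFB11 and COX7B, each had their highest mean in BT549 and their second in MDAMB468. The 3 on chromosome 21, NDUFV3, ATP5PF and ATP5PO, each had their highest mean in MDAMB468. Other genes of these chromosomes went the same way: over 371 well-expressed protein-coding genes of the X chromosome, members included, the median log2 difference from the mean of the other lines was 0.64 in BT549 and 0.29 in MDAMB468, and over 113 of chromosome 21 it was 0.74 in MDAMB468.

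SDHA, the flavoprotein of complex II, read 409, 500 and 356 CPM in HCC1806 shNT and 161, 158 and 161 in MDAMB231, a log2 difference of 1.397 (SE 0.13, adjusted p = 3.5e-09). BT549 and MDAMB468 lay between and did not differ beyond their spread (log2 difference 0.08, SE 0.13, adjusted p = 0.597). Its partner SDHB, the iron-sulphur subunit, ranged only from 48.3 ± 3.73 CPM in MDAMB468 to 72.5 ± 3.02 in HCC1806. In complex III, the core subunit UQCRC2 was at 155 ± 15.6 CPM in BT549 and 57.6 ± 2.34 in MDAMB468, whereas the small subunit UQCR10 was at 30.8 to 33.2 CPM in all 4 lines and was called in no pair. NDUFA4 of complex IV was at 81.9 ± 6.20 CPM in HCC1806 and at 34.5 to 42.7 CPM in the means of the other lines.

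In complex V, ATP5F1C, the gamma subunit that forms the rotating stalk, read 219, 175 and 190 CPM in HCC1806 against 72.8, 77.6 and 63.3 in BT549, a log2 difference of -1.45 for BT549 minus HCC1806 (SE 0.10, adjusted p = 1.2e-11). ATP5F1E, the epsilon subunit of the same stalk, went another way: 144, 145 and 108 CPM in BT549 and 41.6, 35.8 and 33.3 in MDAMB468, a log2 difference of 1.84 (SE 0.13, adjusted p = 1.7e-11). The catalytic beta subunit ATP5F1B had the highest CPM per kilobase of all members, 182 per kb over all libraries, and ranged from 316 ± 12.2 CPM in MDAMB468 to 496 ± 101 in BT549. ATP5F1A, the alpha subunit, was at 321 ± 51.9 CPM in BT549 and 144 ± 10.7 in HCC1806. ATP5IF1, which inhibits ATP hydrolysis by the enzyme, was called in all 6 pairs, from 64.9 ± 5.15 CPM in BT549 to 24.9 ± 1.49 in MDAMB468. Besides UQCR10, the members called in no pair were UQCR11, COX5A, ATP5MC3, ATP5MF, ATP5MJ, the low NDUFA7 and the readthrough gene ATP5MF-PTCD1.

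**Figure D2:**
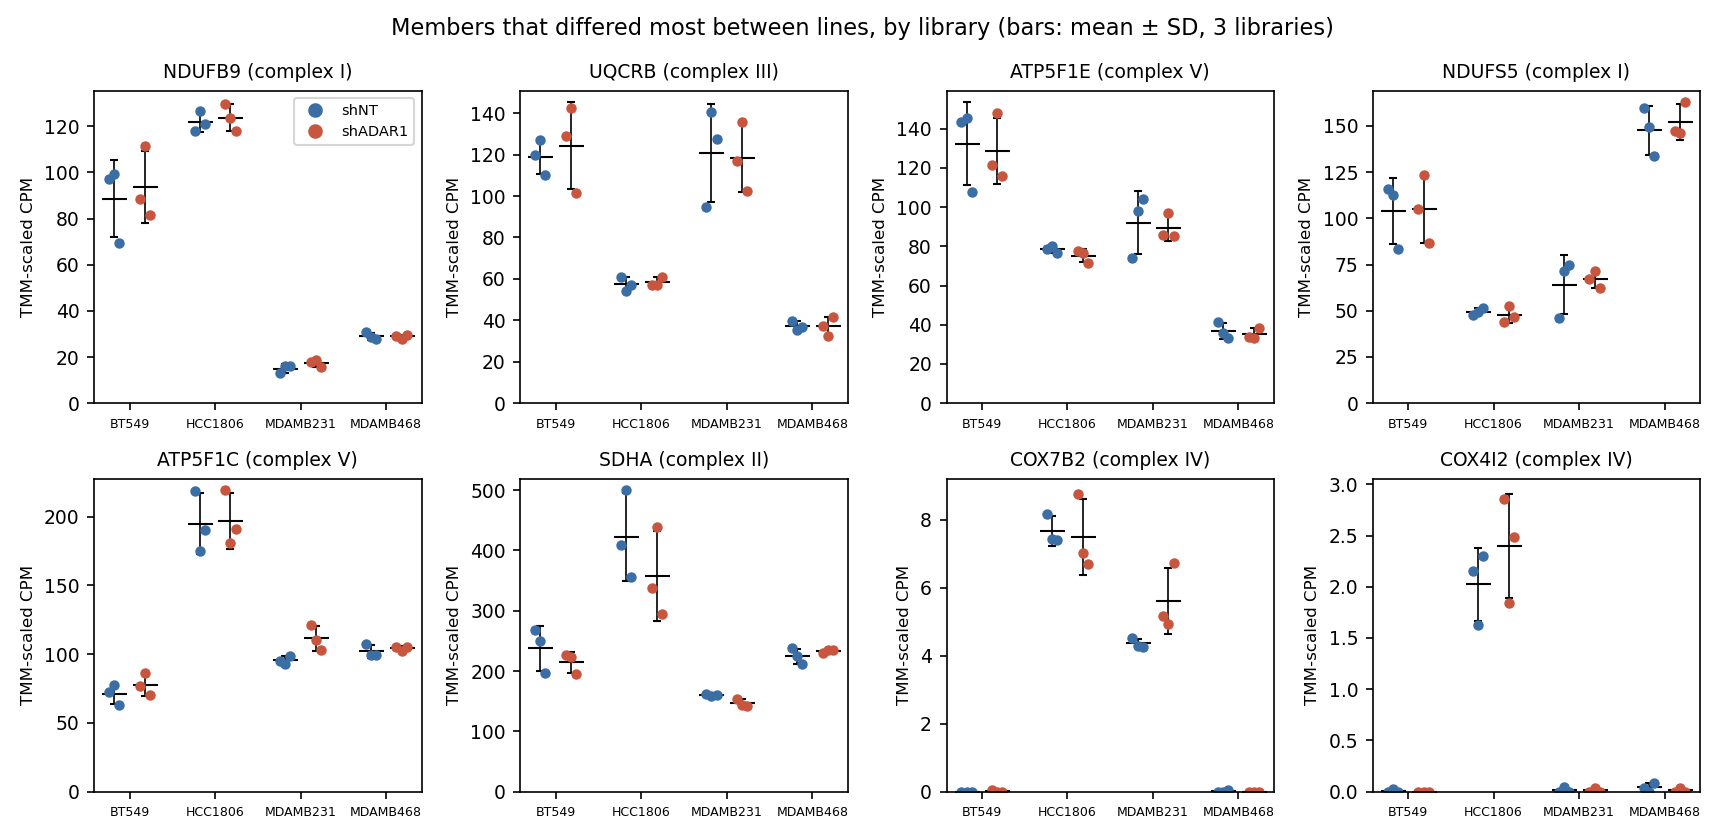
TMM-scaled CPM of 8 members in each library, by line and arm; points are libraries and bars are mean ± SD of 3, with each y axis starting at 0. NDUFB9 is lowest in MDAMB231 and UQCRB in MDAMB468, and COX7B2 and COX4I2 are at or near 0 outside 2 lines and 1 line.

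The tissue-restricted paralogs of complex IV were low, and some marked single lines. COX7B2, a testis-enriched paralog of COX7B, read 8.18, 7.43 and 7.42 CPM in HCC1806 shNT and 4.52, 4.30 and 4.27 in MDAMB231 shNT. It had 0 counts in the 3 BT549 shNT libraries, so that HCC1806 was at least 420.1-fold higher than 3 counts over that group would give, and 2 counts over the 3 MDAMB468 shNT libraries. Its HCC1806 and MDAMB231 levels differed by 0.82 on the log2 scale (SE 0.31, adjusted p = 0.0277), but that call was lost without HCC1806 shNT replicate 1 (adjusted p = 0.0636), without MDAMB231 shNT replicate 2 (0.0627) or without its replicate 3 (0.0700). COX4I2, the lung-enriched paralog of COX4I1, was at 2.03 ± 0.356 CPM in HCC1806 shNT, with 2, 2 and 6 counts over the shNT groups of BT549, MDAMB231 and MDAMB468. COX6B2 was at 3.87 ± 1.08 CPM in HCC1806 and at 0.494 to 0.773 in the means of the other lines. COX7A1, the heart and muscle paralog of COX7A2, was highest in MDAMB231 at 3.46 ± 0.607 CPM, and NDUFA4L2, a hypoxia-inducible paralog of NDUFA4, in BT549 at 3.92 ± 0.477. COX8C and COX6A2 had at most 12 counts over any group. Against these, the widely expressed COX4I1 was at 126 to 209 CPM and COX7B at 34.1 to 77.6 in the line means.

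Genes near a member tended to differ between the same lines. For each of 73 members with a mean of at least 5 CPM and at least 3 other protein-coding genes of that level within 1 Mb, not overlapping it and not members themselves, the difference between the member's highest and lowest shNT line was computed in those neighbours. The neighbours' median was above 0 for 67 of the 73 members, or 91.8%, against 77.8% when every one of 10869 protein-coding genes was treated in the same way. The median of the neighbours' medians was 0.47 (log2) for the members and 0.40 for all genes. Near NDUFB9, 8 genes had a median of 2.37 for HCC1806 over MDAMB231, beside 2.98 for NDUFB9 itself on this scale. Near ATP5F1C the median of 3 genes was 1.79 for HCC1806 over BT549, near SDHA that of 13 genes was 1.35, and near UQCRFS1, the Rieske iron-sulphur subunit of complex III, that of 5 genes was 2.57 beside a difference of 0.97 in the gene itself. Near UQCRC2 the median of 9 genes was 0.29 beside 1.42 in the gene. DNA copy number was not measured here, and its part in these differences was not tested.

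**Figure D3:**
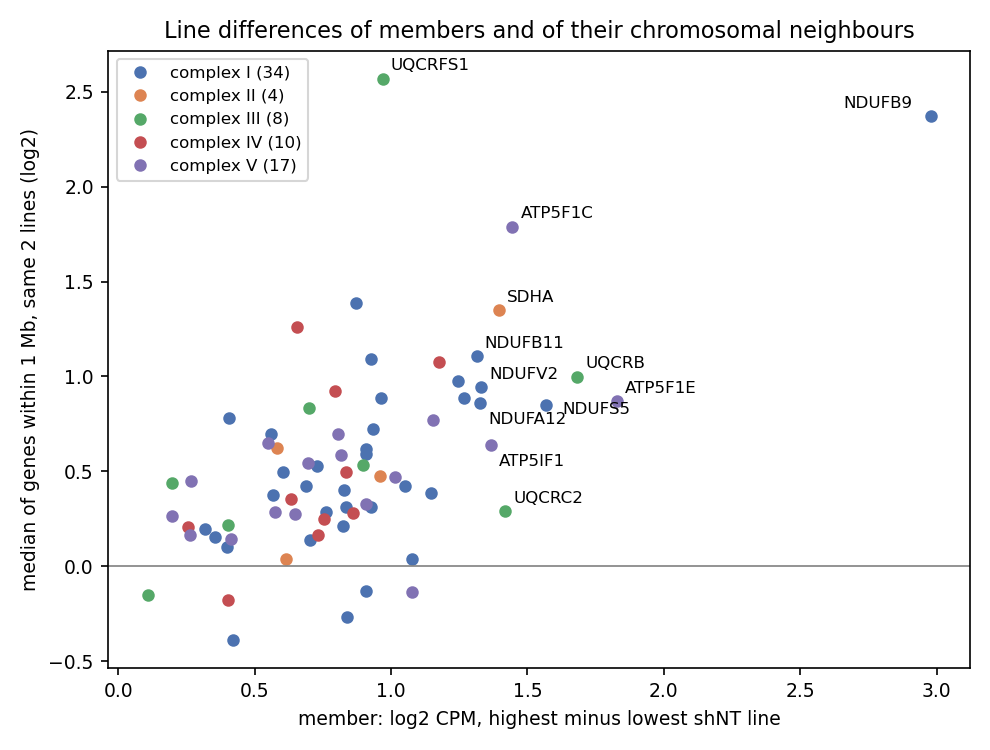
For each of 73 members, the log2 difference between its highest and lowest shNT line (x axis) against the median of the same difference over protein-coding genes within 1 Mb (y axis), coloured by complex. Of the points, 67 lie above 0, with NDUFB9, ATP5F1C and UQCRFS1 among the highest.

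Over 8 group means of log2 CPM, the genes whose pattern was most like the median member were MORF4L2 (Pearson r = 0.987), MIR181B2 (0.984) and PRELID1 (0.977). These are the best of all genes tested over 8 points that share libraries, and MIR181B2 averaged only 0.129 CPM.

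With ADAR1 lowered, the level of every well-expressed subunit gene averaged over the 4 lines lay close to its shNT level. In some line or in the average, 13 members were called by at least 1 of the fits described next. They were 4 in complex I, 2 in complex II, 1 in complex III, 2 in complex IV and 4 in complex V. The share of all genes called in any of these fits was not computed, so that these counts have no background and only list the members concerned. The edgeR quasi-likelihood test was first run without the replicate numbers, which leaves out the pairing of arms described with the processing. No member passed an adjusted p of 0.05 in any line, in the average or in the test of a difference between lines. The shares of all genes that did were 0.473% (BT549), 0.0468% (HCC1806), 2.01% (MDAMB231), 0.0375% (MDAMB468), 2.96% (average) and 0.0234% (difference). Counting unadjusted p below 0.05 gave 1 member in BT549 (1.16%, beside 6.42% of all genes), 11 in MDAMB231 (12.8%, beside 11.7%) and 5 in the average (5.81%, beside 12.8%). It gave 0 in HCC1806 (4.35% of all genes), MDAMB468 (3.76%) and the difference (4.44%). DESeq2 called 1 member in MDAMB231 (NDUFA8; 3.8% of all genes), 2 in the average (NDUFB4 and COX7A2L; 4.94%) and 0 in BT549 (1.4%), HCC1806 and MDAMB468 (0.197% each) and the difference (0.585%). Requiring at least 10 counts in every library gave the same 3 calls in edgeR, beside 4.99% of all genes in MDAMB231 and 7.11% in the average. With the replicate number as a block, edgeR called 1 member in HCC1806, 9 in MDAMB231 and 7 in the average, against 2.1%, 11.4% and 13.2% of all genes, and 0 in BT549 (5.14%), MDAMB468 (1.66%) and the difference (4.69%).

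The data bounded how large a change could be. The SEs and intervals given here are those of the fit without the replicate block. For the 76 members with a mean of at least 5 CPM, the median SE of a log2 fold change was 0.12 to 0.13 within a line and 0.06 in the average. Every 95% interval of the average lay within 1.25-fold of no change, the widest being that of NDUFB8. Within BT549, HCC1806 and MDAMB468 every interval lay within 1.49-fold, and within MDAMB231 the widest reached 1.85-fold, with 73 of 76 inside 1.5-fold. In simulated counts for 20805 genes, the same test recovered 82% of genes changed 1.41-fold in the average but 14% in BT549. These shares were not computed for the members or from their SEs, so they do not give the power for the members. For the members, only the SEs and intervals above bound a change.

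For most of the subunits given here, the average was within 0.10 of 0 on the log2 scale. SDHA (-0.11) and ATP5F1C (0.10), which the block calls, are described further on. The log2 fold change was 0.00 (SE 0.04) for NDUFS1, the largest core subunit of complex I, and 0.06 (SE 0.05) for NDUFV1. It was 0.10 (SE 0.07) for SDHB, 0.07 (SE 0.05) for UQCRC1, 0.08 (SE 0.06) for UQCRC2 and 0.03 (SE 0.06) for UQCRFS1. COX4I1 had 0.04 (SE 0.05), COX5A 0.09 (SE 0.07) and COX5B 0.05 (SE 0.07). ATP5F1A had -0.00 (SE 0.05) and ATP5F1B -0.02 (SE 0.06), and the inhibitor ATP5IF1 had 0.07 (SE 0.06). No interval of these excluded 0. The abundant accessory subunits NDUFS5, UQCRH and COX6B1 had 0.01 (SE 0.08), 0.03 (SE 0.05) and 0.02 (SE 0.06). The lowest value in complex III was that of UQCR11, a small subunit, at -0.04 (SE 0.10). In complex IV and complex V the lowest were COX4I2 and ATP5MF-PTCD1, both at under 1 CPM over all libraries.

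**Figure D4:**
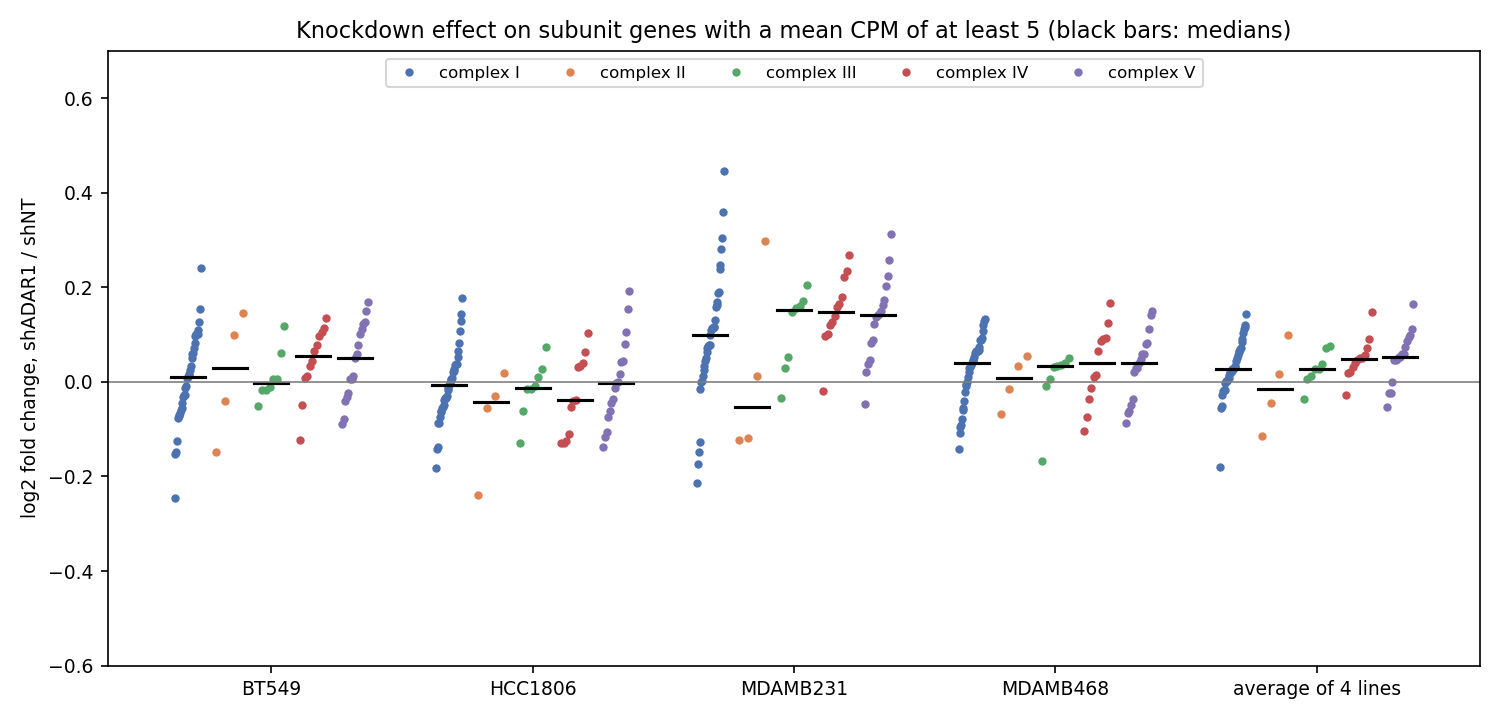
Log2 fold change of shADAR1 over shNT for the 76 members with a mean of at least 5 CPM in each line and in the average of the 4 lines (y axis), grouped and coloured by complex; black bars are medians over the members drawn. Most points lie near 0, and the medians of complexes I, III, IV and V are above 0 in MDAMB231.

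NDUFB4, an accessory subunit of the membrane arm of complex I, had the smallest p of the members in the average. In BT549 it read 29.1, 34.1 and 28.9 CPM in shNT and 20.9, 28.2 and 28.4 in shADAR1, and in MDAMB231 31.2, 33.4 and 28.7 against 23.8, 28.2 and 28.3, with no overlap of the arms in either line. HCC1806 read 53.9, 54.5 and 48.8 against 45.4, 50.2 and 42.8, and MDAMB468 51.97, 49.0 and 48.2 against 48.2, 45.6 and 47.3, where the arms overlapped. The shADAR1 value was the lower in each of the 12 same-numbered pairs, as for 1.68% of all genes tested and for no other member. Such a run was thus no more common among the 86 members than among all genes. The 12 pairs include those of MDAMB468, where the numbers were not read as pairs. The average log2 fold change was -0.18 (SE 0.06, adjusted p = 0.0951 in edgeR), -0.19 in DESeq2 (adjusted p = 0.0208) and -0.18 with the replicate block (SE 0.04, adjusted p = 0.00321).

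COX7A2L, also known as SCAF1, helps join complex III to complex IV in supercomplexes. It read 52.3, 54.0 and 56.1 CPM in MDAMB468 shNT and 58.5, 58.8 and 59.9 in shADAR1, with no overlap. In MDAMB231 the values were 38.9, 48.2 and 42.7 against 53.0, 57.6 and 46.2, which overlapped. In BT549 they were 42.3, 46.5 and 44.2 against 43.5, 55.6 and 46.8, and in HCC1806 77.8, 81.2 and 77.7 against 85.7, 83.2 and 78.5, again with overlap. The shADAR1 value was the higher in each of the 12 same-numbered pairs, as for 1.33% of all genes tested and for no other member. This too was no more common among the 86 members than among all genes, and the 12 pairs again include MDAMB468. The average log2 fold change was 0.15 (SE 0.05, adjusted p = 0.121 in edgeR), 0.14 in DESeq2 (adjusted p = 0.0408) and 0.14 with the block (SE 0.03, adjusted p = 0.00417).

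The other members called in the average with the block were ATP5PF and ATP5PB of the peripheral stalk of complex V, ATP5F1C and NDUFA6, which rose in that fit, and SDHA, which fell. ATP5PF, whose shNT libraries read 21.2 to 26.9 CPM outside MDAMB468 and 41.5 to 44.5 within it, had an average log2 fold change of 0.16 (SE 0.06, adjusted p = 0.174; with the block adjusted p = 0.00467). ATP5PB and ATP5F1C had 0.11 and 0.10, with adjusted p of 0.391 and 0.410 without the block and 0.0169 and 0.0192 with it. NDUFA6, an accessory subunit of complex I, had 0.14, with 0.334 and 0.0483. SDHA had -0.11 (SE 0.06), with an adjusted p of 0.5 without the block and 0.0063 with it. In HCC1806, SDHA read 409, 500 and 356 CPM in shNT and 338, 439 and 294 in shADAR1: the arms overlapped, but each shADAR1 library was below its same-numbered partner. There its log2 fold change was -0.24 (SE 0.13, adjusted p = 1 without the block, and -0.25 with SE 0.05 and adjusted p = 0.0165 with it). That value moved with single libraries: without the block it was -0.41 with shADAR1 replicate 2 left out and -0.10 with shNT replicate 2 or shADAR1 replicate 3 left out. In MDAMB231, SDHA read 161, 158 and 161 against 154, 144 and 142 CPM, with no overlap.

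Of the 4 lines, MDAMB231 had the largest number of members with a positive log2 fold change. This held for 72 of 86, with a median of 0.12 beside 0.00 over all genes tested. The share of all genes with a positive value is not given here. The medians were 0.10 in complex I, -0.05 in complex II, 0.15 in complex III, 0.16 in complex IV and 0.14 in complex V. In the other lines the medians over the 86 members were 0.01 (BT549, 52 positive), -0.01 (HCC1806, 36 positive) and 0.03 (MDAMB468, 54 positive), and in the average 0.04 (66 positive) beside 0.02 over all genes. The test of a difference between lines called no member with or without the block.

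The MDAMB231 values varied by replicate. In same-numbered pairs the members' median log2 ratio was 0.30, 0.10 and -0.01 in pairs 1, 2 and 3, with 73, 66 and 39 of 86 members positive. Pair 1 holds the smallest library, shNT replicate 1. Leaving out that library brought the members' median to 0.06, and leaving out replicate 2 of shADAR1 to 0.05; it was 0.18 with shNT replicate 2 left out and 0.20 with shADAR1 replicate 3 left out. Cytosolic ribosomal protein genes, which are outside the chain, gave 0.39, 0.15 and -0.02 in the same pairs, with 83 of 85 positive and a median of 0.17 in the fit. The 1419 protein-coding genes of at least 5 CPM and up to 2500 bases, members included, gave 0.15, 0.05 and -0.03. All 13 protein-coding genes of the mitochondrial genome had a negative value in the fit, with a median of -0.16. Their medians in pairs 1, 2 and 3 were 0.16, -0.27 and -0.39, positive in pair 1 and lower in each later pair. Summed mitochondrially encoded transcripts were 53342 ± 6632 CPM in shNT and 47090 ± 3717 in shADAR1, with overlapping arms. What these other genes and library size contribute to the members' values was not tested.

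The 9 members that rose in MDAMB231 with the block lie in all 5 complexes. They were NDUFA8 and NDUFB11 (complex I), SDHB (complex II), UQCRH (complex III), COX7A2 and COX7A2L (complex IV), and ATP5F1C, ATP5MC1 and ATP5PF (complex V), with log2 fold changes of 0.21 to 0.35 and adjusted p of 0.0123 to 0.0454; 5.08% of all genes rose in that fit. NDUFA8, an accessory subunit of complex I, read 19.6, 23.6 and 24.97 CPM in shNT and 29.4, 31.4 and 27.1 in shADAR1, with no overlap. Its log2 fold change was 0.36 (SE 0.12, adjusted p = 0.137 in edgeR), 0.35 in DESeq2 (adjusted p = 0.0329), and 0.35 with the block (adjusted p = 0.0175). ATP5F1C read 94.7, 92.7 and 98.9 CPM against 121, 110 and 103, and COX7A2, a complex IV accessory subunit, 45.9, 48.7 and 50.7 against 57.8, 57.9 and 55.4, both with no overlap. NDUFB11, in the membrane arm of complex I, read 22.2, 26.6 and 26.7 against 32.3, 33.3 and 28.1, also with no overlap. The arms of the other 5 (SDHB, UQCRH, COX7A2L, ATP5MC1 and ATP5PF) overlapped in this line.

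**Figure D5:**
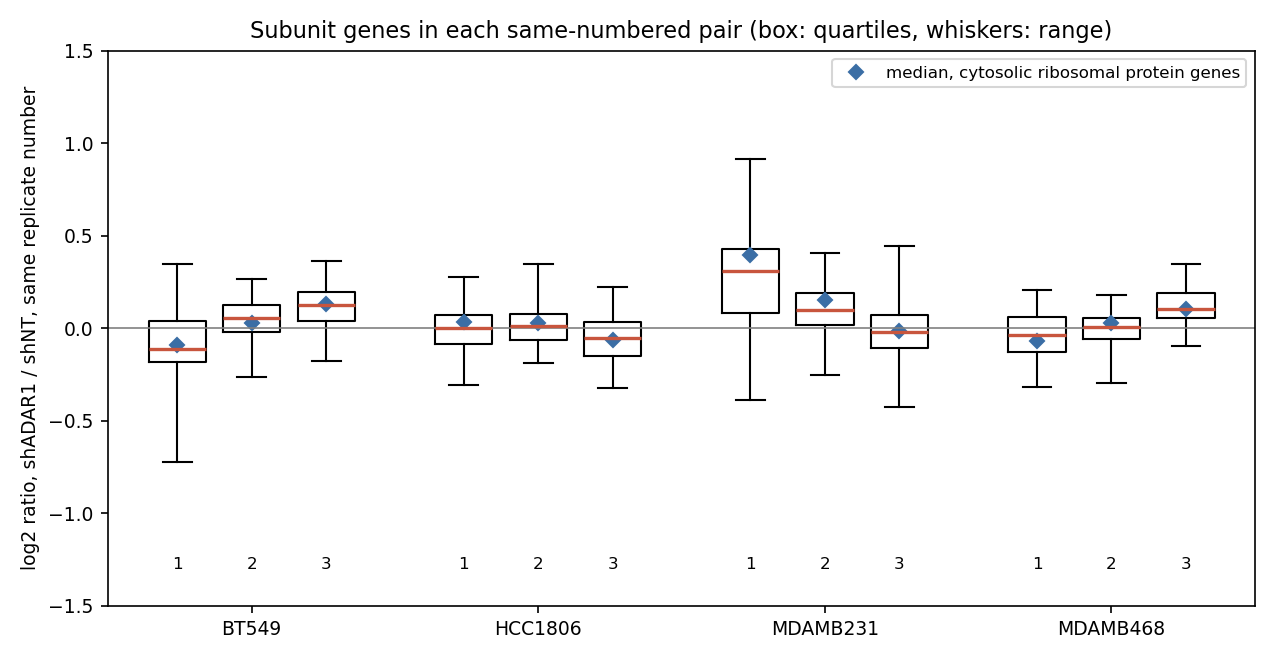
Log2 ratio of shADAR1 to shNT CPM (0.5 added) for the 76 members with a mean of at least 5 CPM in each same-numbered pair (1 to 3) of each line; boxes are quartiles, red lines medians and whiskers the full range, and blue diamonds are medians of cytosolic ribosomal protein genes. Pair 1 of MDAMB231 has the highest box and the highest diamond of the 12 pairs, with medians of 0.30 over all 86 tested members and 0.39 over the ribosomal protein genes.

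Arms that did not overlap were uncommon among the members, as among all genes. In BT549 only NDUFA5 lay wholly higher and only NDUFB4 wholly lower in shADAR1, 1.16% of the 86 members each, against 8.24% and 6.43% of all genes. In HCC1806 none lay wholly higher (background 4.38%) and ATP5MGL, a low-level paralog of ATP5MG, wholly lower (3.2%). In MDAMB231 7 lay wholly higher, or 8.14% against 7.19%, and 3 wholly lower, or 3.49% against 7.01%. In MDAMB468 7 lay wholly higher, again 8.14%, against 6.69%, and none wholly lower (4.3%). Members higher in all 3 same-numbered pairs numbered 20 in BT549 (23.3%, background 21.2%), 14 in HCC1806 (16.3%, 19.4%), 33 in MDAMB231 (38.4%, 19.8%) and 18 in MDAMB468 (20.9%, 18.1%).

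Few genes that work with the subunits passed the edgeR test without the block. CYC1, the cytochrome c1 subunit of complex III that the naming rule leaves out, had an average log2 fold change of 0.10 (SE 0.08, adjusted p = 0.707), with shNT levels of 258 CPM in BT549 and 60.4 in MDAMB468. CYCS, cytochrome c, had 0.14 (SE 0.06, adjusted p = 0.321; with the block 0.00289). In the average edgeR called none of 50 assembly factors and none of 13 genes of the mitochondrial genome, beside 2.96% of all genes. At an unadjusted p below 0.05 there were 7 assembly factors, or 14% against 12.8% of all genes, and with the block 6 were called, or 12% against 13.2%; the mitochondrial genome had 0 in both counts. Among 16 regulators of mitochondrial biogenesis 2 had an unadjusted p below 0.05 in edgeR (12.5%, against 12.8% of all genes). Of these regulators edgeR called 1 (6.25%, against 2.96%) and the block 3 (18.75%, against 13.2%). The 1 was ESRRA, an orphan nuclear receptor that activates respiratory genes, which rose by 0.25 (SE 0.05, adjusted p = 0.0072). The log2 fold change of ESRRA was 0.50 in MDAMB231 (adjusted p = 0.0138) and 0.04 in HCC1806, and whether the lines differed in it was called only with the block (adjusted p = 1 without it, 0.0434 with it). Among 13 genes of the citric acid cycle 3 had an unadjusted p below 0.05 in edgeR (23.1%, against 12.8% of all genes). Of these cycle genes edgeR called 1 (7.69%, against 2.96%) and the block 4 (30.8%, against 13.2%). The 1 was OGDH, a subunit of 2-oxoglutarate dehydrogenase, which fell by 0.22 (SE 0.05, adjusted p = 0.00912).

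Several members share exons with another gene, and their counts are uncertain because strand use in counting is not given in the sources used here. The shared part of the exon length was 61.6% for ATP5ME, 48.5% for NDUFB8, 44.9% for NDUFB11, 44.5% for NDUFA1 and 19.7% for NDUFB9, and 93.8% for ATP5MF-PTCD1, and other members, among them NDUFA7 and COX8A, share part of theirs too. ATP5ME and NDUFB8, at 2.82 to 6.40 and 2.85 to 7.46 CPM in the shNT means, were low beside other subunits.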

How the data were processed

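RNA-seq libraries from ribosomal-RNA-depleted total RNA of 24 cultures were analysed. The deposited files hold whole-number read counts per gene, CPM and RPKM, per the file headers, made by the authors; the submitters' processing notes name bcl2fastq, STAR, Subread featureCounts and edgeR without roles. The genome build, annotation and strand setting are not given in the sources used here. The deposited CPM and RPKM values were not used for any test. Symbols matched 33972 of 37416 rows; 31354 rows had the same start and end in GENCODE 29.

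Counts were tested with edgeR 4.0.16 (quasi-likelihood F test, two-sided, R 4.3.3) in 1 fit with 8 group coefficients, filterByExpr, TMM scaling (factors 0.924 to 1.12) and Benjamini-Hochberg adjustment over 21352 genes at 0.05. SEs were derived from the fold change and F statistic, and 95% intervals from the SE. The fit was tested on simulated data with known changes. Precision within a line is limited by 3 libraries and, for low genes, by depth. Alternatives were DESeq2 1.42.0, RLE and upper-quartile scaling, 2 other filters, removal of mitochondrial and structural RNA genes, the 6 libraries of a line alone, a replicate block and leaving out each library. Within each group, libraries were farther apart than counting error allows (11.8 to 110.5 chi-square per degree of freedom), so none was merged.

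Members and gene lists were chosen with earlier results of these data known. Genes were named by rule: ADAR, core and isoform lists, called members, the extremes of each complex in the average, the 6 widest baseline ranges, called genes of the related lists, and the 3 most alike genes; other members named here were chosen after their values were seen, as were the neighbour comparison and the motif letters. Not every gene that the rule names is reported here.

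Replicate numbers are shared between arms. Over all genes tested, the deviations of same-numbered libraries from the means of their groups correlated at 0.139 to 0.443 in BT549, HCC1806 and MDAMB231, and the numbers were read as pairs there. In MDAMB468 the correlations were 0.165, 0.166 and 0.0651, and because of the last value the numbers were not read as pairs. The values 0.165 and 0.166 lay above the lowest of the other lines, 0.139. Over 11000 genes with higher counts all 12 correlations were 0.255 to 0.811. There each shNT library, in MDAMB468 too, correlated best with the shADAR1 library of the same number. The main fit leaves the replicate numbers out, so that its calls, SEs and intervals do not use the pairs. For most members its SEs were larger than those with the block, as for ATP5F1B in HCC1806 (0.11 beside 0.06).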

Additional observations from a re-analysis of the deposited data

How the results depend on the processing

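The count of members called after ADAR1 knockdown was 0 under every scaling, in fits without a low-count filter or without mitochondrial and structural RNA genes, in the fit of a line alone, and in all fits that left out 1 library (lowest 0, highest 0). It moved under 3 settings: DESeq2 gave 1 in MDAMB231 and 2 in the average, at least 10 counts in every library gave 1 and 2, and the replicate block gave 1 in HCC1806, 9 in MDAMB231 and 7 in the average. For all genes the block moved the calls from 101 to 1098 in BT549, 10 to 448 in HCC1806, 429 to 2434 in MDAMB231, 8 to 354 in MDAMB468 and 632 to 2820 in the average. The pairing that it assumes was read from the data in 3 lines and not in MDAMB468. Why the settings differ was not tested. The stricter filter left 11794 genes to adjust over.

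Baseline counts stayed within 1.5 times the reported count under all settings. Without 1 library the joint test called 73 to 78 members, and the pairs of lines 50 to 59 (BT549 and HCC1806), 38 to 51 (BT549 and MDAMB231), 42 to 51 (BT549 and MDAMB468), 42 to 51 (HCC1806 and MDAMB231), 48 to 52 (HCC1806 and MDAMB468) and 49 to 53 (MDAMB231 and MDAMB468). In HCC1806 the fall of ADAR was not called in the fit of its 6 libraries alone (log2 fold change -1.60, adjusted p = 0.213). The median knockdown value of the members in BT549 ran from -0.06 to 0.08 when 1 library was left out, in HCC1806 from -0.03 to 0.03 and in MDAMB468 from -0.01 to 0.05, so that it had no settled sign in those lines. Depth limits the paralogs at a few CPM and the smallest library, at 10370645 counts.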
